A study of Mus musculus with 6 samples.

Results

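The mitochondrial ribosomal protein genes were described in mouse cells labelled as mammary luminal cells, the secretory-lineage cells that line the mammary duct, kept with or without EFNA3. They were taken as every entry of the deposited expression table whose symbol begins with Mrpl or Mrps followed by a digit. This gave 82 of 19739 entries, of which 51 carry a large subunit symbol (Mrpl) and 31 a small subunit symbol (Mrps). Among them are 5 pseudogenes, 3 with an Mrpl and 2 with an Mrps symbol, which leaves 77 protein-coding genes. Both groups are wild-type (WT) cells that were sorted by flow cytometry, cultured, and held without serum for 12 hours. The EFNA3 group then had EFNA3 protein at 1 µg/ml in serum-free medium for 24 hours (3 libraries), and the control group had 0 µg/ml (3 libraries). EFNA3 is an ephrin-A, a ligand of Eph receptor tyrosine kinases, and the study asks what it does to gene expression in these cells. The culture medium before starvation held growth factors and the ROCK inhibitor Y-27632 in both groups. The labels give neither the age of the animals nor whether each library had an animal or a culture of its own; the spread between libraries, on which every p-value here rests, may therefore be technical.

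The mitochondrial ribosome, or mitoribosome, sits in the matrix and makes the few proteins that mitochondrial DNA encodes, all of them core subunits of oxidative phosphorylation. Its ribosomal RNAs come from mitochondrial DNA, while its proteins come from nuclear genes, are made in the cytosol and are imported. The large subunit forms peptide bonds and feeds the product into the inner membrane, and the small subunit binds the mRNA and reads its codons. Some of the proteins have bacterial relatives, and the others were added during the evolution of mitochondria. Symbols do not always give the subunit: the products of Mrps18a and Mrps30 are built into the large subunit, and that of Mrps36 belongs to the 2-oxoglutarate dehydrogenase complex of the citric acid cycle.

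The 68 members with an entry in the RefSeq promoter table (build GRCm38.p6) were searched in the 250 bases before the gene start for letters of factors with known roles at nuclear genes for mitochondrial proteins. The letters were CCGGAAG or CTTCCGG for ETS factors such as GABP, GCATGCG or CGCATGC for NRF1, and AAGATGGCG or CGCCATCTT for YY1, so that both strands were read. The 4 promoters shown are those of the members with the highest and the lowest difference between groups in each subunit as built, with a match in capitals.
Mrpl51, chr6:125191950-125192199, plus strand: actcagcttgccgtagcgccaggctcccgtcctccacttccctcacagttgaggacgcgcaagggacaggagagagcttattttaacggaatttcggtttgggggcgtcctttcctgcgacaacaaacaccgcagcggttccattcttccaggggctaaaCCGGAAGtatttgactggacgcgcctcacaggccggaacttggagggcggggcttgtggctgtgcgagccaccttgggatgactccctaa
Mrpl23, chr7:142532782-142533031, plus strand: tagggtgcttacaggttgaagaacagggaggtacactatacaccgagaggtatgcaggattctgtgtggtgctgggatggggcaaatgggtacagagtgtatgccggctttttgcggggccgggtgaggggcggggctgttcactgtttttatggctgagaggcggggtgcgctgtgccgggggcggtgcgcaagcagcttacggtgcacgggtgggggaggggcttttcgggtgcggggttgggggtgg
Mrps21, chr3:95871515-95871764, minus strand: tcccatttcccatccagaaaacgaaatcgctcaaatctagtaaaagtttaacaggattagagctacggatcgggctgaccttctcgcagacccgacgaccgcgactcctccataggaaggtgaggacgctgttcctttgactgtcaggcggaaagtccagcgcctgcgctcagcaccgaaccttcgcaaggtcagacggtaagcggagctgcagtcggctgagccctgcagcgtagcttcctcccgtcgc
Mrps31, chr8:22411090-22411339, plus strand: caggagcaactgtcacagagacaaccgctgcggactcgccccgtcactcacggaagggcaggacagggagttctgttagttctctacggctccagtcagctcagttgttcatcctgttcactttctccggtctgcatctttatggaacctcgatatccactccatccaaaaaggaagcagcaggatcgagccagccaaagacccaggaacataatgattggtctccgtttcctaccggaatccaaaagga
Mrpl51 held the ETS letters, beginning 90 bases before the start, and the other 3 promoters held none of the letters searched.

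The ETS letters were found in 17 of the 68 member promoters (25%), in 11 of 42 with an Mrpl symbol and 6 of 26 with an Mrps symbol, against 14.8% of the 11125 other tested genes with a promoter and 7.83% of all 27025 promoters. The NRF1 letters were in 8 member promoters (11.8%), against 5.82% of the other tested genes and 3.43% of all promoters. The YY1 letters were in 2 (2.94%), against 1.35% and 0.710%. No ETS match overlapped a YY1 match, and 25 of the 68 promoters held at least 1 of these letters. The median difference between groups was 0.22 (log2) in the 17 members with the ETS letters and 0.18 in those without. It was 0.15 in the 8 with the NRF1 letters and 0.20 in those without, and 0.21 and 0.19 for the YY1 letters. In the other tested genes the medians with and without were 0.025 and -0.0021 for ETS, 0.010 and 0.00067 for NRF1, and 0.015 and 0.00091 for YY1.

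The deposited values were taken as log2 values on 1 common distribution, with a median of 8.10 in each library, and read depth is unknown. The luminal markers were detected in 8 of 8 genes, with a summed level of 16.36 to 16.63 (log2) in EFNA3 libraries and 16.28 to 16.37 in control libraries. Basal markers were detected in 7 of 8 genes and had higher sums than the luminal markers, 16.98 to 17.05 in EFNA3 libraries and 16.90 to 16.99 in control libraries. The control means were 16.3 for Krt14, 14.9 for Krt5, 13.4 for Oxtr and 11.8 for Trp63. Lower were Mylk at 9.4, Acta2 at 7.8 and Tagln at 5.2. These cells thus held RNA of basal genes, keratins and others, beside luminal markers. Fibroblast sums (5 of 6 genes) were 10.63 to 10.78 in EFNA3 libraries and 10.75 to 10.79 in control libraries, and immune sums (3 of 6) were 7.35 to 7.57 and 7.33 to 7.69 in the same order. Of the 5 endothelial markers, 1 passed the filter. The sums follow the most abundant genes, and the mean difference over a list's tested genes (EFNA3 minus control, log2) was 0.15 for luminal markers with 8 of 8 higher, -0.13 for basal markers with 3 of 7 higher, 0.26 for fibroblast markers with 4 of 5 higher and 0.088 for immune markers with 1 of 3 higher. Without EFNA3 replicate 1, the library described next, the luminal mean was 0.065, the basal -0.099, the fibroblast 0.18 and the immune 0.011. The part of these shifts in the members' values was not tested. EFNA3 replicate 1 stood apart from the others. Over 15972 tested genes its deviation from the mean of the 6 libraries had a Spearman correlation of -0.51 with transcript length, while the other 5 libraries lay between 0.017 and 0.35, so short transcripts read higher in it. Mitoribosomal genes are short, with a median coding length of 588 nt against 1419 nt over all tested genes, and the values that turn on that library are therefore given with and without it. In bulk RNA, fewer cells of a type and less RNA per cell cannot be told apart.

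The mitoribosomal genes were higher on average in the EFNA3 libraries, by a small amount. Of the 82 members, 79 had a higher mean with EFNA3, against 50.8% of the 16394 genes tested, and the 3 exceptions were Mrpl23 and the pseudogenes Mrpl48-ps and Mrps36-ps2. The difference (EFNA3 minus control, log2) had a median of 0.18 over the members and 0.0038 over all tested genes, and ran from -0.57 to 0.52. No member passed limma's test with Benjamini-Hochberg adjustment at 0.05, and nor did any of the 16394 genes (0%). The smallest adjusted p of a member was 0.55. At an unadjusted p under 0.05, limma had 14 members higher with EFNA3 (17.1%), 9 Mrpl and 5 Mrps, against 3.87% of all tested genes, and 0 lower, against 2.86%.

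Without overlap between the groups, meaning that all EFNA3 libraries lay above all control libraries, were 33 members (40.2%), 19 Mrpl and 14 Mrps, against 8.53% of all tested genes. No member lay below in the same sense, against 7.45% of all tested genes. Among tested genes of the members' level range, taken as the 10th to 90th percentile of their mean level (8.23 to 10.15, n = 4157), 8.37% lay above without overlap. In genes of both that level range and the members' coding length range (362 to 1057 nt, n = 1246) the share was 15.3%. After a correction of each library for transcript length and GC content, 17 of the 81 members with a length (21.0%) lay above without overlap, against 8.95% of 15972 tested genes, and 0 lay below, against 6.23%.

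**Figure D1:**
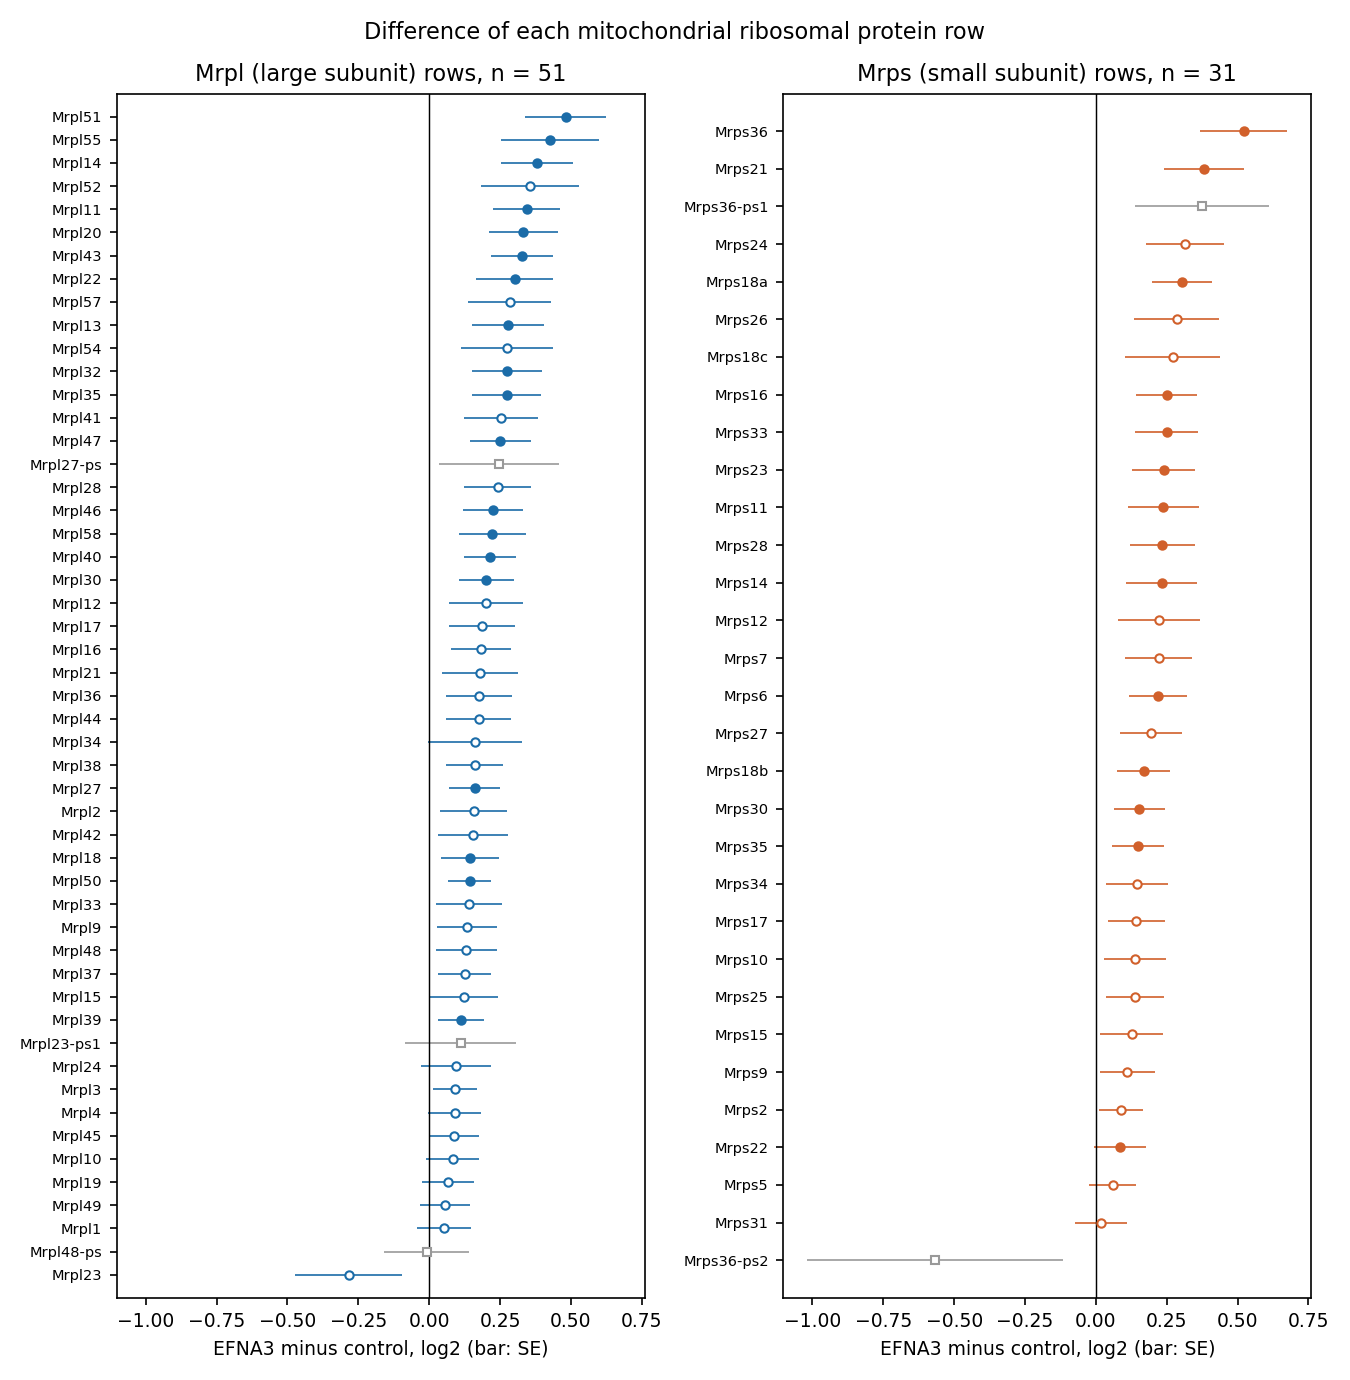
Difference between EFNA3 and control libraries (EFNA3 minus control, log2) of each mitoribosomal gene, ranked, with Mrpl symbols in the left panel and Mrps symbols in the right; points are means over 3 libraries per group and bars are limma standard errors. Filled circles are the 33 members without overlap between groups, grey squares are the 5 pseudogenes, and 79 of the 82 points lie above 0.

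The excess was uneven over the EFNA3 libraries. Relative to the mean of the 3 control libraries, the members averaged 0.37 higher in EFNA3 replicate 1, 0.10 in replicate 2 and 0.087 in replicate 3. EFNA3 replicate 1 was above all controls in 78 members (95.1%, against 39.7% of all tested genes), replicate 2 in 48 (58.5%, against 24.6%) and replicate 3 in 41 (50%, against 23.5%). EFNA3 replicate 1 was also the highest EFNA3 library for 76 of the 82 members (92.7%, against 42.8%). Without it, 73 of 82 members still had a higher mean with EFNA3 (49.8% of all tested genes), and the mean difference was 0.094 in place of 0.19. The 33 members without overlap are also the 33 whose other EFNA3 libraries both lie above all controls, against a background of 10.4% for such genes without that library, and 1 member, Mrpl24, lay below (9.2% of all tested genes), with 11.38, 10.90 and 10.92 in EFNA3 libraries and 10.96, 10.95 and 11.01 in control libraries. At an unadjusted p under 0.05, limma then had 8 members higher, against 2.41% of all tested genes.

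Large and small subunit genes had nearly the same mean difference between the groups. The mean over Mrpl members was 0.39, 0.092 and 0.079 above the control mean in EFNA3 replicates 1, 2 and 3, a difference of 0.19. The mean over Mrps members was 0.34, 0.11 and 0.10 above it in the same libraries, a difference of 0.18. Both sets thus shared the order of the EFNA3 libraries, with replicate 1 highest.

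The Mrpl mean minus the Mrps mean, each taken relative to the gene's mean over the 6 libraries, was 0.053 in EFNA3 replicate 1 and -0.024 in each of EFNA3 replicates 2 and 3, and it was 0.021, -0.062 and 0.035 in control replicates 1, 2 and 3. It averaged 0.0016 ± 0.044 in EFNA3 libraries and -0.0016 ± 0.053 in control libraries (SD, n = 3 each). The groups overlapped, and their difference of 0.0033 was far below either SD. Placing the genes by the subunit their product is built into, with Mrps18a and Mrps30 among the large and Mrps36 in neither, gave 0.0041. Without the pseudogenes it was -0.012, the Mrpl mean being 0.19 and the Mrps mean 0.20, with 76 of 77 genes higher.

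**Figure D2:**
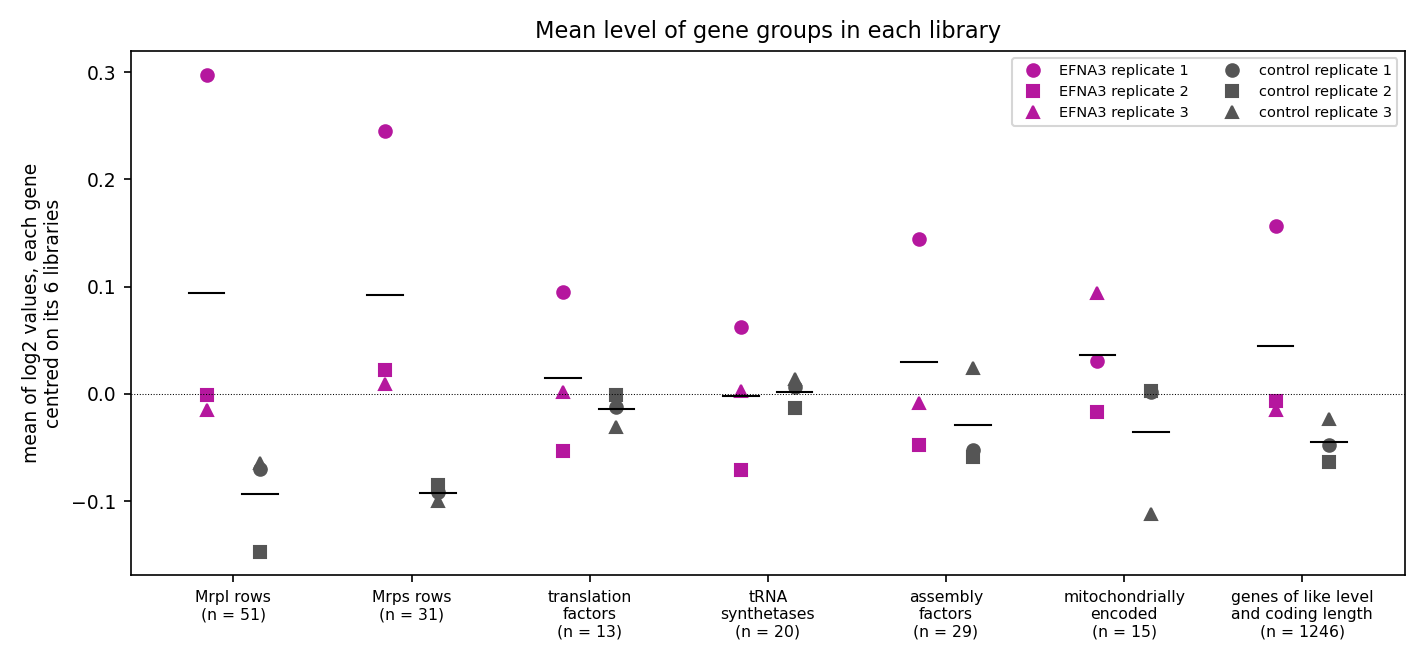
Mean log2 value per library relative to each gene's own mean over the 6 libraries, for the Mrpl and Mrps members and comparison groups of genes, with EFNA3 libraries left of control libraries. The Mrpl and Mrps means are both highest in EFNA3 replicate 1; among the controls the Mrpl mean is lowest in replicate 2 and the Mrps mean in replicate 3.

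A split by origin was made as a description. In the large subunit the 29 proteins with bacterial relatives averaged a difference of 0.17 and the 21 specific to mitochondria 0.22. The class of Mrpl55 (0.42), counted among these 21, is uncertain. Leaving out EFNA3 replicate 1 gave 0.070 and 0.11. In the small subunit the 16 with bacterial relatives averaged 0.20 and the 10 specific to mitochondria 0.17, an order that turned without EFNA3 replicate 1 (0.090 and 0.098) and with length and GC correction (0.145 and 0.149).

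Within the members, shorter genes had the larger differences. Split into 4 by coding length, the mean difference was 0.28 in the 20 genes of 261 to 435 nt, 0.21 in the next 19, 0.19 in the next 19, and 0.11 in the 19 genes of 873 to 1326 nt. With EFNA3 replicate 1 left out the means were 0.15, 0.11, 0.086 and 0.043 in the same order. Across the 77 member genes, Spearman's correlation of the difference with coding length was -0.57, and -0.41 without EFNA3 replicate 1. Across 13049 tested genes with a coding length it was -0.53, and -0.32 without that library. These correlations are across genes that share the same 6 libraries, and describe them.

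Set against the other genes of their own coding length, the members kept part of their difference. The median of the other genes was 0.18 for coding lengths of 300 to 450 nt, 0.13 for 450 to 600 nt, 0.11 for 600 to 800 nt and 0.047 for 1000 to 1300 nt. Above the median of their own length class lay 66 of the 77 member genes, by 0.075 on average (39 of 48 Mrpl genes, by 0.071, and 27 of 29 Mrps genes, by 0.082). Without EFNA3 replicate 1 the count was 58 of 77 and the average 0.052. The 1246 tested genes of like level and coding length averaged 0.20, 0.039 and 0.030 above the control mean in EFNA3 replicates 1, 2 and 3, the same order of libraries as in the members. After the correction for transcript length and GC content, the members' mean difference was 0.13, and 0.070 without EFNA3 replicate 1. The part of the library's length pattern in the members' difference was not tested beyond these values.

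**Figure D3:**
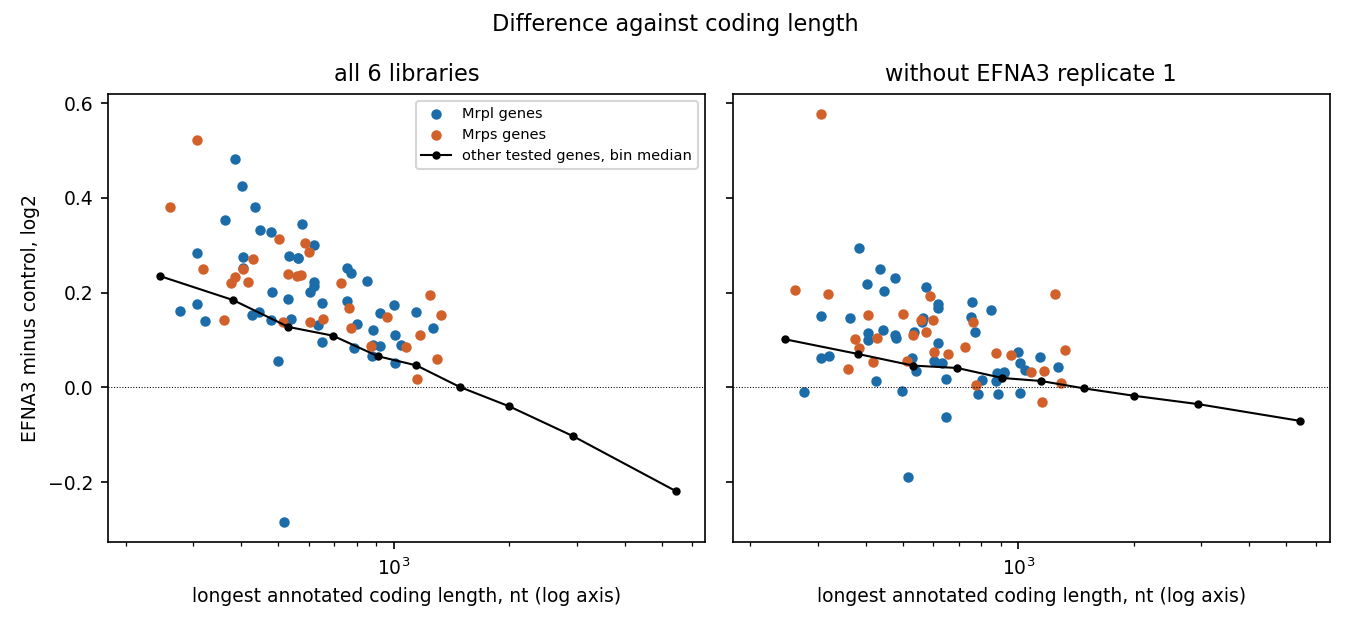
Difference between EFNA3 and control libraries (log2) against coding length (nt, log axis) for the 77 mitoribosomal genes, with the line joining the medians of other tested genes by length class; one panel uses all 6 libraries and the other leaves out EFNA3 replicate 1. Both sets slope down with length, and 66 of 77 members lie above the line with all libraries and 58 of 77 without EFNA3 replicate 1.

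Levels between genes were compared per kilobase of the longest annotated transcript, as log2 value minus log2 length in kb (GENCODE vM21). On that scale the Mrpl members averaged 8.66 ± 0.17 in EFNA3 libraries and 8.47 ± 0.043 in control libraries (SD, n = 3 each). The Mrps members averaged 8.30 ± 0.13 in EFNA3 libraries and 8.12 ± 0.0074 in control libraries. Large subunit genes were thus read at a level 0.35 above small subunit genes over the 6 libraries (8.56 and 8.21), which is less than the spread between members, an SD of 1.11 over 50 Mrpl and 1.08 over 31 Mrps members. By the subunit the product is built into, the means were 8.56 and 8.37, and without pseudogenes they were 8.59 and 8.31, so the gap depends on which genes are counted. Per kilobase of coding sequence the means were 10.23 for 48 Mrpl genes and 9.94 for 29 Mrps genes. The order of single genes depends on the length used, and both ranks are given.

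Mrps21, a small subunit protein with a bacterial relative, had the highest level per kilobase, 10.93, and ranked 2 of 77 by coding length. Mrpl24, a protein near the large subunit's exit tunnel, followed at 10.60 and ranked 3 by coding length. Mrps6 came next at 10.02, with rank 4 by coding length. These 3 were among the leading genes on either scale. Mrps6 shares exon bases on the same strand with Slc5a3, so its value may hold reads of both.

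Mrpl54 (10.00), Mrpl36 (9.93) and Mrps15 (9.61) were also among the 3 highest of their subunit per kilobase, but ranked 25, 6 and 41 by coding length. Mrps17 led by coding length at 11.84 and was at rank 49 per kilobase of transcript. The lowest gene on either scale was Mrpl23, which encodes another exit-tunnel protein. It was at 4.72 per kilobase of transcript and 7.56 per kilobase of coding sequence (rank 77 of 77). This level is uncertain, since the pseudogene Mrpl23-ps1 is identical to its transcript over 540 bases and reads may be split or lost in counting. Mrpl17 (6.96) and Mrps25 (6.37) were low per kilobase of transcript, but at ranks 17 and 47 by coding length, and the pseudogene Mrps36-ps2 was at 5.72.

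**Figure D4:**
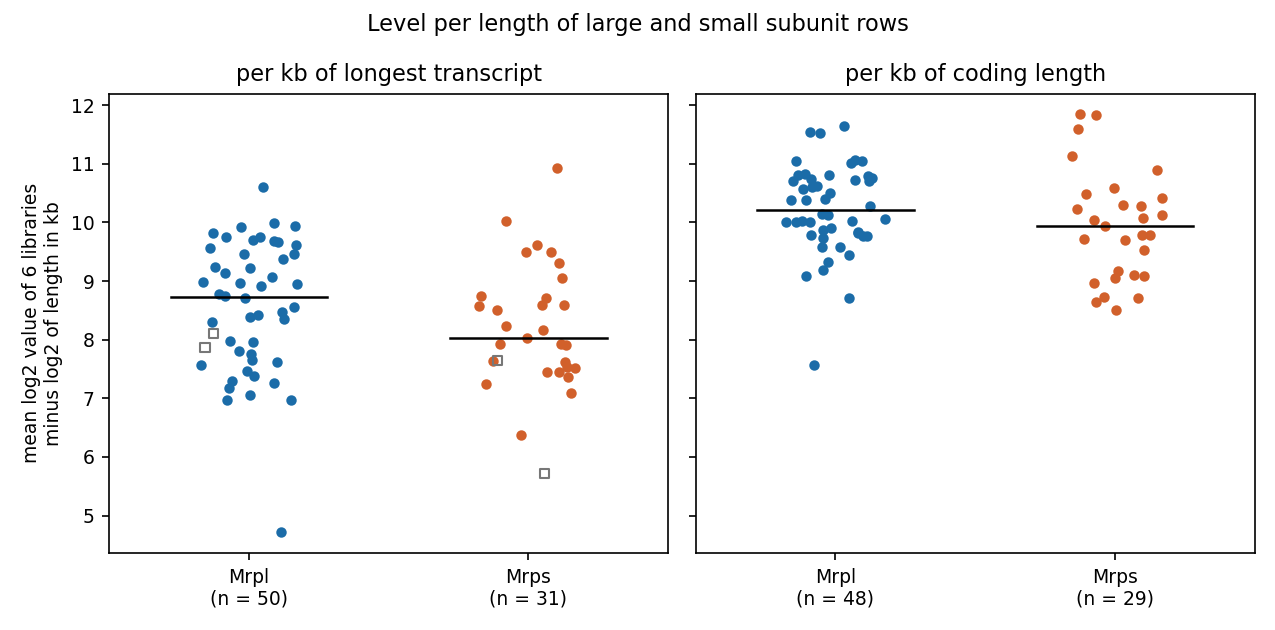
Mean level over the 6 libraries (log2 per kb) of the Mrpl and Mrps members, per kilobase of the longest transcript and per kilobase of coding sequence. Each point is a member, with pseudogenes as open squares. Lines are medians, at 8.73 (Mrpl) and 8.03 (Mrps) per kilobase of transcript, and 10.21 and 9.94 per kilobase of coding sequence. The Mrpl means of 8.56 and 10.23 lie above the Mrps means of 8.21 and 9.94, within the spread of the members.

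Among large subunit genes the highest difference was that of Mrpl51, a protein specific to mitochondria. In EFNA3 replicates 1, 2 and 3 its log2 values were 10.77, 10.16 and 10.26. Control replicates 1, 2 and 3 had 9.95, 9.88 and 9.91, the order in which values of single genes are given from here on. All EFNA3 libraries were above the narrow range of the controls, replicate 1 by the most. The difference was 0.48 (SE 0.14, limma adjusted p 0.55), and 0.30 without EFNA3 replicate 1.

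Mrpl55, counted here among the proteins specific to mitochondria, had 9.09, 8.36 and 8.57 in EFNA3 libraries and 8.17, 8.22 and 8.36 in control libraries. EFNA3 replicate 2 and control replicate 3 were nearly level at the border of the groups, and the difference of 0.42 (SE 0.17) was 0.22 without EFNA3 replicate 1. Mrpl14, which has a bacterial relative and on whose surface the assembly factor Malsu1 docks, had 9.64, 9.16 and 9.33 in EFNA3 libraries and 9.02, 8.89 and 9.08 in control libraries. The groups did not overlap, with a difference of 0.38 (SE 0.13), 0.25 without EFNA3 replicate 1, and Mrpl14 shares exon bases on the opposite strand with Tmem63b.

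Mrpl11, a part of the stalk base where translation factors bind, had 10.02, 9.65 and 9.59 in EFNA3 libraries and 9.39, 9.35 and 9.48 in control libraries. All EFNA3 values were above all control values, with a difference of 0.34 (SE 0.12), 0.21 without EFNA3 replicate 1. Mrpl52, specific to mitochondria, had 9.83, 9.38 and 9.04 in EFNA3 libraries and 9.08, 8.99 and 9.12 in control libraries. Here EFNA3 replicate 3 lay within the controls, and the difference of 0.35 (SE 0.17) was 0.15 without EFNA3 replicate 1. Mrpl54 had a difference of 0.27 (SE 0.16), Mrpl17 0.19 (SE 0.12) and Mrpl36 0.18 (SE 0.12), each with overlap. Without that library they had 0.099, 0.063 and 0.063.

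At the other end of the large subunit, Mrpl23 had 6.28, 6.33 and 6.80 in EFNA3 libraries and 6.56, 6.91 and 6.78 in control libraries. With all 6 libraries it was the only one of the 77 genes with a lower mean with EFNA3, by -0.28 (SE 0.19; -0.19 without EFNA3 replicate 1), and the groups overlapped. Its coding sequence is of 516 nt, within the range where most members were higher. The pseudogene Mrpl23-ps1 is identical to the parent transcript over 540 bases (100%), so reads of the pair may be split or lost in counting, and both values are uncertain. Mrpl1, the protein of the mobile stalk near the exit site, had a difference of 0.05 (SE 0.09), and Mrpl24 one of 0.10 (SE 0.12). Without EFNA3 replicate 1 these were -0.013 and -0.062, so the sign of both rests on that library.

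Mrps36, whose product is not a ribosomal protein in the mammalian structures, had the highest difference of all members. Its log2 values were 7.08, 7.12 and 7.38 in EFNA3 libraries and 6.81, 6.50 and 6.71 in control libraries. The groups did not overlap, and unlike in 76 of the members EFNA3 replicate 1 was not the highest of its group but the lowest. The difference was 0.52 (SE 0.15, limma adjusted p 0.55), and 0.58 without that library. Mrps36 has 2 pseudogenes in the table that are near copies of it, Mrps36-ps1 (99.3% identity over 306 bases) and Mrps36-ps2 (99.0% over 309), so its value is uncertain. Mrps36-ps1 had a difference of 0.37 (SE 0.24) and Mrps36-ps2 one of -0.57 (SE 0.45), both with overlap. They had 0.16 and -0.087 without EFNA3 replicate 1.

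Mrps21 had 10.43, 9.86 and 9.95 in EFNA3 libraries and 9.66, 9.66 and 9.79 in control libraries. The groups did not overlap, and the difference was 0.38 (SE 0.14), 0.20 without EFNA3 replicate 1. Mrps24, the relative of the bacterial protein at the mRNA entry, had 9.78, 9.38 and 9.22 in EFNA3 libraries and 9.23, 9.08 and 9.12 in control libraries. EFNA3 replicate 3 lay within the controls, and the difference of 0.31 (SE 0.14) was 0.16 without EFNA3 replicate 1. Mrps24 shares exon bases on the same strand with Urgcp.

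**Figure D5:**
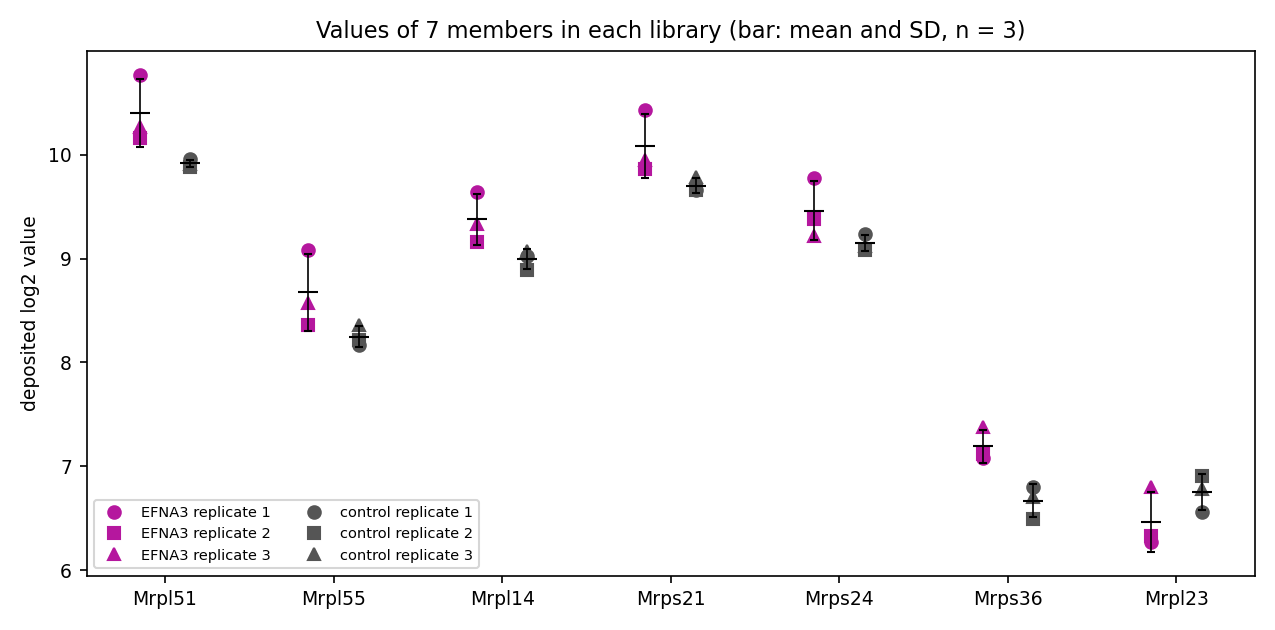
Log2 values by library of 7 members, with EFNA3 libraries left of control libraries in each panel; points are libraries and lines are group means. Mrps36, Mrpl51, Mrpl55, Mrpl14 and Mrps21 have no overlap between groups, Mrps24 overlaps in EFNA3 replicate 3, and Mrpl23 has the lower mean with EFNA3.

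The paralogs Mrps18a, Mrps18b and Mrps18c take different places in the mitoribosome, Mrps18a in the large subunit and the other two in the small. Mrps18a had 10.03, 9.74 and 9.66 in EFNA3 libraries and 9.45, 9.55 and 9.52 in control libraries, without overlap, a difference of 0.30 (SE 0.11). Mrps18b had 8.85, 8.69 and 8.82 in EFNA3 libraries and 8.61, 8.68 and 8.56 in control libraries, barely without overlap, a difference of 0.17 (SE 0.09). Mrps18c, the bacterial-type copy, had 8.78, 8.22 and 8.34 in EFNA3 libraries and 8.39, 8.17 and 7.97 in control libraries. It alone of the 3 overlapped, with a difference of 0.27 (SE 0.17), and it shares exon bases on the same strand with Gm43511. Mrps30, in the large subunit, had 9.61, 9.36 and 9.41 in EFNA3 libraries and 9.29, 9.31 and 9.31 in control libraries, without overlap, a difference of 0.15 (SE 0.09). Without EFNA3 replicate 1 the differences were 0.19 for Mrps18a, 0.14 for Mrps18b, 0.10 for Mrps18c and 0.078 for Mrps30.

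The lowest Mrps differences among the genes were 0.02 (SE 0.09) for Mrps31 and 0.06 (SE 0.08) for Mrps5, a protein of the mRNA channel. Mrps31 had 9.04, 8.93 and 8.85 in EFNA3 libraries and 8.97, 8.86 and 8.92 in control libraries, so the groups lay within each other, and its coding sequence of 1152 nt is long for a member. Its sign turned without EFNA3 replicate 1, at -0.030, and Mrps5 was then at 0.0091. Mrps6 (0.22, SE 0.10, without overlap), Mrps15 (0.13, SE 0.11) and Mrps25 (0.14, SE 0.10) lay between. These became 0.10, 0.0049 and 0.057 without EFNA3 replicate 1. Of the remaining pseudogenes, Mrpl27-ps had a difference of 0.25 (SE 0.21), Mrpl23-ps1 0.11 (SE 0.20) and Mrpl48-ps -0.0092 (SE 0.15), the last with 98.1% identity to Mrpl48 over 636 bases. Without that library the 3 had 0.093, 0.045 and 0.059. In all, 29 of the 82 members share exon bases with another gene in the table, 25 of them on the opposite strand, and the strand setting of the counting is not given in the sources used here.

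Other genes of the pathway had mixed and mostly smaller differences, and none passed limma's adjusted test. Of the mitoribosomal subunits with other symbols, 5 of 7 passed the filter and 4 of the 5 had a higher mean with EFNA3, with a mean difference of 0.18 (0.087 without EFNA3 replicate 1). Chchd1, a small subunit protein, led with 9.89, 9.39 and 9.43 in EFNA3 libraries and 9.13, 9.10 and 9.09 in control libraries, without overlap, a difference of 0.47 (SE 0.13, limma adjusted p 0.55). Aurkaip1 (0.21, SE 0.11) and the GTP-binding protein Dap3 (0.13, SE 0.11) were next in the size of their p. The 3 had 0.31, 0.11 and 0.0033 without EFNA3 replicate 1.

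The factors that work with the mitoribosome had means near 0. Of 13 mitochondrial translation factors tested, 9 had a higher mean with EFNA3, and the mean difference was 0.029. Smallest in p were the recycling factor Gfm2 at -0.17 (SE 0.09) and Tsfm at 0.29 (SE 0.16). They had -0.12 and 0.093 without EFNA3 replicate 1. Of 20 genes of aminoacyl-tRNA synthesis, 9 were higher and the mean was -0.0043, with 0.23 (SE 0.12) for Sars2 and -0.11 (SE 0.06) for Iars2. Of 29 assembly factors, 22 were higher with a mean of 0.059. Nsun4, a methyltransferase of the small subunit rRNA, had -0.21 (SE 0.09). Noa1 had 0.18 (SE 0.08) and Malsu1 0.36 (SE 0.17), with 0.14 and 0.15 without EFNA3 replicate 1. Without that library 4 of 13 translation factors were higher (mean -0.011), 6 of 20 genes of aminoacyl-tRNA synthesis (mean -0.036) and 17 of 29 assembly factors (mean 0.0013), against 49.8% of all tested genes. At an unadjusted p under 0.05, limma had none of the first 2 lists and 1 assembly factor, lower, against 3.87% of all tested genes higher and 2.86% lower. The median coding lengths of these lists, 1215 to 1616 nt, are longer than that of the members, so their lower values stand beside a difference in length. After the correction for transcript length and GC content their means were 0.026, 0.017 and 0.036 in the same order, against 0.13 for the members. Without EFNA3 replicate 1 these were -0.0096, -0.027 and -0.0052, against 0.070. The part of length was not tested beyond these values.

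Of 17 genes for mitochondrial DNA and RNA handling, 11 were higher with a mean difference of 0.034. Of 8 genes for membrane insertion and quality control, 6 were higher with a mean of 0.099, and the chaperonin Hspe1 had 0.34 (SE 0.13). Without EFNA3 replicate 1, 8 of the 17 and 5 of the 8 were higher, the means were -0.0028 and -0.014, and Hspe1 had 0.17. Of 15 mitochondrially encoded genes, 9 were higher with a mean of 0.072, and 12 with a mean of 0.074 without that library. The mitoribosome's own RNAs stood above that mean: mt-Rnr1, of the small subunit, had 13.09, 12.16 and 12.07 in EFNA3 libraries and 11.91, 11.94 and 12.04 in control libraries, and mt-Rnr2, of the large subunit, had 13.97, 13.43 and 13.32 in EFNA3 libraries and 13.03, 13.22 and 13.23 in control libraries. Neither overlapped between groups, and EFNA3 replicate 1 was the highest library for both. Their differences of 0.47 and 0.42 were 0.15 and 0.22 without that library. Other genes of this list also stood above its mean: mt-Nd3 had 0.42, mt-Nd6 0.35 (without overlap) and mt-Co2 0.27. In turn, 6 of the 15 had a lower mean with EFNA3, down to -0.44. After the correction for transcript length and GC content the list mean was -0.0094, with 6 of 15 higher. Libraries were made with an mRNA kit, and the part of this in the levels of ribosomal RNA was not tested.

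Other short nuclear genes were higher as well. All 81 genes with a cytosolic ribosomal protein symbol had a higher mean with EFNA3, by 0.35 on average, with 21.0% without overlap. All 37 genes with a complex I subunit symbol (Nduf) did, by 0.29, with 54.1% without overlap, against 8.53% of all tested genes. Both lists were taken by symbol, and the complex each product is built into was not checked. Their means were 0.19 and 0.14 without EFNA3 replicate 1, with 76 of 81 and 36 of 37 genes higher. After the correction for transcript length and GC content the means were 0.25 and 0.20, against 0.13 for the members, with 78 of 81 and 37 of 37 higher. Without EFNA3 replicate 1 the corrected means were 0.15 and 0.10, against 0.070 for the members. The part of length was not tested beyond these values. The member mean over the 6 libraries was tracked most closely by Sms (Pearson r 0.999), Rpl41 (0.999), Gss (0.998), Rpe (0.998) and Elob (0.998), and 865 of 16312 other tested genes had r of at least 0.95. With 6 libraries, of which EFNA3 replicate 1 stands apart, such values describe the shared library pattern.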

How the data were processed

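RNA was sequenced in 6 libraries. Per the labels' protocols, the kit was a stranded one for mRNA and started from total RNA. The submitters' processing notes name Trim Galore, Subread, featureCounts and build mm39. Not given in the sources used here are versions, annotation, strand setting and the step to log2 values. The deposited values (19739 genes) run from -0.79 to 18.1 and were taken as log2, a base inferred from the values. The sorted columns of the deposited log2 table differ by at most 0.00302, so the libraries were brought to 1 common distribution; depth is unknown, and a change common to every gene cannot be seen. Columns were matched to samples by their description labels.

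Genes with at least 10 on the linear scale (log2 3.32) in at least 3 of 6 libraries were tested (16394, all 82 members among them) with limma 3.58.1 in R 4.3.3, with a mean-variance trend, no block, two-sided, and Benjamini-Hochberg adjustment at 0.05 over all of them. The fit was also run on simulated data with independent noise. Those data held no library set apart and no length pattern, so the run does not cover these features. Transcript and coding lengths and GC content come from GENCODE vM21 (matched for 97.4% of tested genes), whose build differs from that of the files. Shared exon bases were found from the exon coordinates of that annotation, and may differ in the build used for counting. Pseudogene identities come from blastn 2.17.0. Subunit means include pseudogenes unless stated. With 3 libraries a group, the smallest p of an exact permutation test is 0.1. The text names, in each subunit, the 5 highest and 3 lowest differences, the 3 highest and 2 lowest levels per length, the pseudogenes, Mrps18a, Mrps18b, Mrps18c, Mrps30 and Mrps36, up to 3 genes of the other lists by smallest p, and the 5 genes most like the members. The members and lists were chosen with earlier results of these data known.

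Alternatives were another filter, a replicate block by title or description number, library weights, added constants, length and GC correction, and leaving out each library; the values without pseudogenes and per coding kilobase were added after seeing the data. The labels do not say whether libraries with the same number share an animal or a day. Promoter sequences are from RefSeq.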

Additional observations from a re-analysis of the deposited data

How the results depend on the processing

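The mean differences of both subunits stayed positive and within 1 SD of the EFNA3 libraries in every alternative run, from 0.062 to 0.24 for Mrpl and from 0.083 to 0.23 for Mrps members. Leaving out 1 library gave 0.085 to 0.24 and 0.11 to 0.23, a large minus small difference of -0.027 to 0.022, 34 to 49 members without overlap in either direction (19.6% to 33.8% of all tested genes, a share that itself grows with fewer libraries), and levels per kilobase of 8.504 to 8.591 (large) and 8.16 to 8.23 (small). By medians over members, large minus small was -0.044 in place of 0.0033. With length and GC correction, 17 members had no overlap in place of 33. The large subunit level was 9.33 with no length scale and 10.23 per coding kilobase, and the small subunit level 8.96, 9.94 and, by structure, 8.37. No alternative called a member with limma.

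Deviations of libraries with the same title number had correlations of -0.11, 0.030 and -0.32. These values cannot show whether such libraries share an animal or a day. With a replicate block by title limma called 0 genes, the subunit means being 0.19 and 0.18. With a replicate block by description number, chosen from the column names, limma called 71 genes, none of them a member, against 0 without a block (1104 at an unadjusted p under 0.05). In that block EFNA3 replicate 2 (number 6) and control replicate 2 (number 3) have no partner. Its calls thus rest on the pairs numbered 1 and 7 alone.

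Signs turned for 6 named members with small differences. Mrpl1 had -0.020 with library weights, -0.013 without EFNA3 replicate 1 and -0.012 with that and length and GC correction, and Mrpl24 had -0.036, -0.062 and -0.095 in the same order. Mrps31 had -0.013 and -0.030 in the first 2, -0.036 with the third, -0.0033 with length and GC correction with or without the title block, -0.0036 with the description block and -0.0096 without control replicate 2 (up to 0.061 without EFNA3 replicate 3). Mrps15 had -0.050 with length and GC correction without EFNA3 replicate 1. Mrpl48-ps had 0.055 with library weights, and 0.059, 0.029 and 0.081 without EFNA3 replicate 1, control replicate 1 and control replicate 3. It had -0.14 without control replicate 2, and went down to -0.19 over the alternatives. Mrpl23-ps1 had -0.071 with the description block, -0.026 with length and GC correction with or without the title block, -0.024 with that correction without EFNA3 replicate 1, and -0.085 without control replicate 2 (up to 0.30 without control replicate 1). The cause was not tested.

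Depth is unknown, and no counting error is given. Coding length from a protein table was not run, and the lengths and shared exon bases come from an annotation of another build. With 3 libraries a group and EFNA3 replicate 1 apart from the rest, the sizes of the differences depend on whether that library is used.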
